A study of Mus musculus with 20 samples.

Results

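Testes of C57BL/6 mice taken 24 h after a heat shock were compared with testes of unheated C57BL/6 mice. The 2 arrays titled as 24 h and the 2 titled as control made up the comparison, 4 of the 20 arrays of a study that also held AKR/N mice and testes taken 8, 10 and 12 h after heat. The heated group received 43 °C for 15 min and the control group was not heated. Mice of both groups were 8 weeks old and of the same inbred strain, and the labels name no mutation, transgene or drug. They do not say which part of the body was heated, nor whether replicate arrays were made from different mice. The p-values therefore reflect only the spread between replicate arrays, pooled over all 20 arrays of the study, and that spread may be technical. No sampling time is given for the controls, so the effects of heat and of that time cannot be told apart.

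The testis works a few degrees below body temperature, and dividing and meiotic germ cells are the cells that heat is known to harm most. Heated cells switch on chaperones, proteins that bind misfolded proteins, through heat shock factors that bind repeats of the short sequence nGAAn in promoters. Sertoli cells nurse the germ cells and take up those that die, and Leydig cells between the tubules make testosterone. In whole tissue, fewer cells of a type and less RNA per cell cannot be told apart, and this holds for each result below.

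The tissue read as testis. Prm1, which encodes the protamine that packs sperm DNA, had signals of 11139.9 and 11092 on the 24 h arrays, against 9666 and 10411 on the control arrays. Clu, an abundant Sertoli cell transcript, lay at 7365 and 7216 at 24 h, against 3843 and 4144 in controls. Markers of lymphocytes were near background, with the 8 tested members summing to 131 and 160.2 at 24 h, against 136 and 147 in controls, and the T cell receptor gene Cd3d lay under 4 on all 4 arrays. Signal is the brightness of a probe set in arbitrary units, and the number of arrays limits the precision. The replicates correlated across genes with r = 0.986 at 24 h and 0.987 in controls, and the 24 h and control arrays with r of 0.932 to 0.941, though genes are no independent replicates. For beta-actin the 3' probe set over the 5' one, which tracks how intact the RNA was, gave 2.84 and 2.58 at 24 h, against 2.14 and 2.46 in controls. Its part in the results was not tested.

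At 24 h 3366 genes were higher and 2623 lower than in controls among the 15762 tested, with 983 and 792 changed at least 2-fold (6.24% and 5.02% of all). A gene was called by limma at a Benjamini-Hochberg adjusted p under 0.05, and 38% of the genes tested were called, 21.4% higher and 16.6% lower. These percentages are the background for every list below. The median log2 change of all genes was 0.08. Centring each array on its median moved it to −0.05, with 2311 genes higher and 2988 lower, and quantile normalization gave 2938 and 2864. Which direction held more genes depended on the scaling. Changes are log2 differences of group means of log2(signal + 16) with the standard error (SE) of the fit, and they understate the change of dim genes. Of the genes that rose 327 lay in controls under the signal of 17.5 that set the limit for testing, and of those that fell 130 lay under it at 24 h.

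The chaperones carried some of the largest rises. Chaperones differ in where they work. Inducible HSP70 proteins and the small heat shock proteins act in the cytosol while the chaperonin of Hspd1 and Hspe1 folds proteins inside mitochondria. The promoters of 4 chaperone genes that rose are shown because they hold the sequence heat shock factors are known to bind. They are the RefSeq windows of GRCm38.p6, 250 bases before to 50 after the annotated start. Capitals mark GAANNTTC or TTCNNGAA, the pair of facing repeats, each of which reads the same on both strands. The windows lie at chr17:34959189-34959488 on the minus strand for Hspa1b, chr5:135887669-135887968 on the plus strand for Hspb1, chr1:55087883-55088182 on the minus strand for Hspd1 and chr9:18292017-18292316 on the plus strand for Chordc1.
Hspa1b: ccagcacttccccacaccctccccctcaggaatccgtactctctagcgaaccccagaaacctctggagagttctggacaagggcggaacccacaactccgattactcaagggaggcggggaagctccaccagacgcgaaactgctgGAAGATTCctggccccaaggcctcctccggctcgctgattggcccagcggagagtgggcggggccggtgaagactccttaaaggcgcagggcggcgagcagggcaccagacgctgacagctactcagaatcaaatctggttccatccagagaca
Hspb1: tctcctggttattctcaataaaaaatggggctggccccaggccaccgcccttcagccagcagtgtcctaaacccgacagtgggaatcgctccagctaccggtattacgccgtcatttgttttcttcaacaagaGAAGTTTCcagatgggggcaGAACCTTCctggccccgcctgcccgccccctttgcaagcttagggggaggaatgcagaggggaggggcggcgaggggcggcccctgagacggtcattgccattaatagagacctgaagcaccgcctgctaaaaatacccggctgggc
Hspd1: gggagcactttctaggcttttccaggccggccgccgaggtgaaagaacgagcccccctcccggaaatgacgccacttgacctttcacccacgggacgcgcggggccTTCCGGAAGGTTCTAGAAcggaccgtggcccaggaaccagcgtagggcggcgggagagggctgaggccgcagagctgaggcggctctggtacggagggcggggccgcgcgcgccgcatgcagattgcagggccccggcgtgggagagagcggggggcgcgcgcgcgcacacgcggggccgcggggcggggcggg
Chordc1: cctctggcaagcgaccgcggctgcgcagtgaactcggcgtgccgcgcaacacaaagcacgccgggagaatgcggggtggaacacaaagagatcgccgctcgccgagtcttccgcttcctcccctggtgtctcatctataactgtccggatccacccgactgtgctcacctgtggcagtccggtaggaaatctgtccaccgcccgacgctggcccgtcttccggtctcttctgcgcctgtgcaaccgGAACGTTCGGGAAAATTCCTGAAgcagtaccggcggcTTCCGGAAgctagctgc

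The Hspa1b window has 1 pair, 104 bases before the start, the Hspb1 window has 2 and the Hspd1 window has 3 that overlap. RefSeq lists a second start for Hspd1 whose window holds no match. Hspe1, the gene on the other strand, has a window that overlaps that of Hspd1 by 285 bases and holds the same run of 18 bases, read there as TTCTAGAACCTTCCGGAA. The Chordc1 window has 5 pairs, some of them overlapping. Of the 53 tested genes in the lists of cytosolic, small, mitochondrial and DNAJ chaperones, 45 had a promoter in the table and 17 of these (37.8%) held a pair. Among the 16 that rose 13 had a promoter, and 10 of them (76.9%) held a pair. A pair stood in 14.8% of the promoters of all tested genes, in 15.2% of those of genes that rose and in 15% of those of genes that fell. A pair extended by 1 more repeat at the same spacing stood in 4 of the 13 promoters and in 0.641% of those of all tested genes. Both chaperone counts take Hspd1 and Hspe1 separately, though their windows share the run. The count of pairs also takes Hspa1a and Hspa1b separately, whose near-identical windows hold the same pair 104 bases before the start. The 13 promoters are therefore not independent. A match is a description of the letters and not a bound site.

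Hspd1 had signals of 2193 and 2250.2 at 24 h, against 324 and 328 in controls, a log2 change of 2.71 (SE 0.17, adjusted p = 1.36e-06). Its partner Hspe1 had 1821 and 1788, against 419 and 348, a change of 2.19 (SE 0.19). The groups lay far apart for both subunits of the chaperonin. Lonp1, the protease of the mitochondrial matrix, rose by 1.37, with 318 and 317 at 24 h, against 118 and 109 in controls. Clpx, which unfolds proteins for another matrix protease, changed by 0.46, a call lost without 24 h replicate 2 (0.39) or control replicate 1 (0.43). The list had 4 higher and 0 lower of 10, with a median of 0.06.

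The inducible HSP70 gene Hspa1b had signals of 590.5 and 286 at 24 h, against 58.1 and 39.1 in controls. It rose by 2.74 (SE 0.66, adjusted p = 0.00493), a call that was lost without 24 h replicate 1 (2.24). Its near-identical neighbour Hspa1a had 449 and 249, against 80.8 and 64.9, a change of 1.99 (SE 0.67, adjusted p = 0.0312), also lost without that array (1.58), and without control replicate 1 (2.12) or 2 (1.86). Probes of these 2 genes may read both transcripts. Hspa8, the HSP70 that cells make without stress, had 2447 and 2596, against 1213 and 1287, a change of 1.0 (SE 0.11), and its other probe sets gave 1.05, 1.01 and 0.49. Chordc1, an HSP90 co-chaperone, rose by 1.15 (SE 0.20), with 245 and 258, against 100.1 and 109.8. Hsph1, the HSP110 that recharges HSP70, changed by 0.61 (SE 0.17, adjusted p = 0.0126), a call lost without 24 h replicate 1 or control replicate 2 (0.59 in both cases). Hspa13, a microsomal HSP70, changed by 0.64, with 0.24, 0.45 and 0.12 from its other probe sets, and was lost without 24 h replicate 2 (0.46). The HSP90 gene Hsp90aa1 had 5396 and 5956, against 6317 and 6220.1, a change of −0.14 (SE 0.10) that did not pass. Its other probe sets gave −0.41, −0.0001 and −1.06. The list of cytosolic chaperones also holds the microsomal Hspa13. In all, 6 of the 18 tested cytosolic chaperones were higher and 1 lower, with a median of 0.01 that became −0.11 with median centring, and 3 were higher without 24 h replicate 1.

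The small heat shock proteins split by direction. Hspb1, the HSP27 gene, had signals of 2873 and 2657 at 24 h, against 576 and 666 in controls, a change of 2.13 (SE 0.15, adjusted p = 1.79e-06). Cryab, which encodes alpha-B crystallin, had 227 and 239, against 22.9 and 25.8, a change of 2.63 (SE 0.23), with 1.95 and 0.22 from its other probe sets. Hspb8 rose by 1.74 (SE 0.31), with 1.78 and 0.41 from its other probe sets. Hspb6 fell to 149.5 and 165 at 24 h, against 302 and 318 in controls, by 0.91 on the log2 scale. Hspb7 changed by −1.05, lost without 24 h replicate 1 (−0.74). Of the 7 tested members 3 were higher and 2 lower.

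Among the DNAJ proteins, which hand substrates to HSP70, 3 of 18 were higher and 2 lower, with a median of 0.12, and 4 were lower with the mean of all probe sets. Dnajb4 had 2354 and 2402 at 24 h, against 1376 and 1336 in controls, a change of 0.80 (SE 0.11), but its other probe sets gave 0.35 and −0.41. Dnaja4 changed by 0.71, with −0.20 and 0.18 from its other probe sets, and Dnajb7 by 0.60. Dnajb9 changed by −0.49, lost without 24 h replicate 1 (−0.42) or control replicate 1 (−0.44). Dnajb2 changed by −0.47, and lost its call without 24 h replicate 1 (−0.45), 24 h replicate 2 (−0.48) or control replicate 2 (−0.43). The heat-inducible Dnajb1 had 2248 and 2488, against 2670.4 and 3057, a change of −0.27 (SE 0.13, adjusted p = 0.127). Its other probe set gave −1.02. Of the heat shock factor list Hsf5, a germ cell member, fell to 648 and 736, against 1296 and 1499, and Hsbp1, which binds the factor HSF1, to 3047 and 2993, against 6049.9 and 6219.9. These were changes of −1.0 and −1.02. The other 2 tested members did not pass.

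Germ cells have chaperones of their own. Hspa2, the HSP70 that meiosis in male mice requires, fell by 1.11 (SE 0.18), with signals of 1019 and 1074 at 24 h, against 2199 and 2351 in controls. Clgn, a lectin chaperone of sperm membrane proteins, fell by 0.69. Hspa1l, an HSP70 of spermatids, rose by 0.78 with 3527 and 3513, against 1894 and 2198. Pdilt and Calr3, chaperones of the spermatid endoplasmic reticulum, rose by 0.87 and 0.70, with 0.20 and 0.62 from the other probe sets of Calr3. So 3 of these 11 genes were higher and 2 lower, with a median of 0.24.

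The gene with the largest rise was not a chaperone. Tnfrsf12a, the receptor for the cytokine TWEAK, had signals of 363 and 391 at 24 h, against 3.31 and 7.27 in controls, which lie under the limit for testing, a change of 4.21 (SE 0.36, adjusted p = 5e-06). Ccng1, the p53 target cyclin G1, had 801 and 791, against 69.9 and 82.7, a change of 3.14 (SE 0.22), and 1.27 by one other probe set. Adh1, an alcohol dehydrogenase that also acts on retinol, had 504 and 475, against 38.2 and 53.1, a change of 3.04. Star, which carries cholesterol into mitochondria for steroid synthesis, had 751 and 645, against 87.0 and 75.7, a change of 2.87. The groups did not overlap for these 4 genes, as for 71.2% of all genes tested. Serpinb1a, an inhibitor of serine proteases, rose by 2.85 and Cd24a, a surface glycoprotein, by 2.85 with 761 and 669, against 80.0 and 90.6. Crim1, a membrane protein that binds growth factors, rose by 2.74, with 0.80 from its other probe set. Timp1, an inhibitor of matrix proteases, had 252 and 283, against 26.2 and 29.4, a change of 2.69, and Igfbp3, which binds insulin-like growth factors, had 197 and 169, against 10.7 and 22.96, a change of 2.62.

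**Figure D1:**
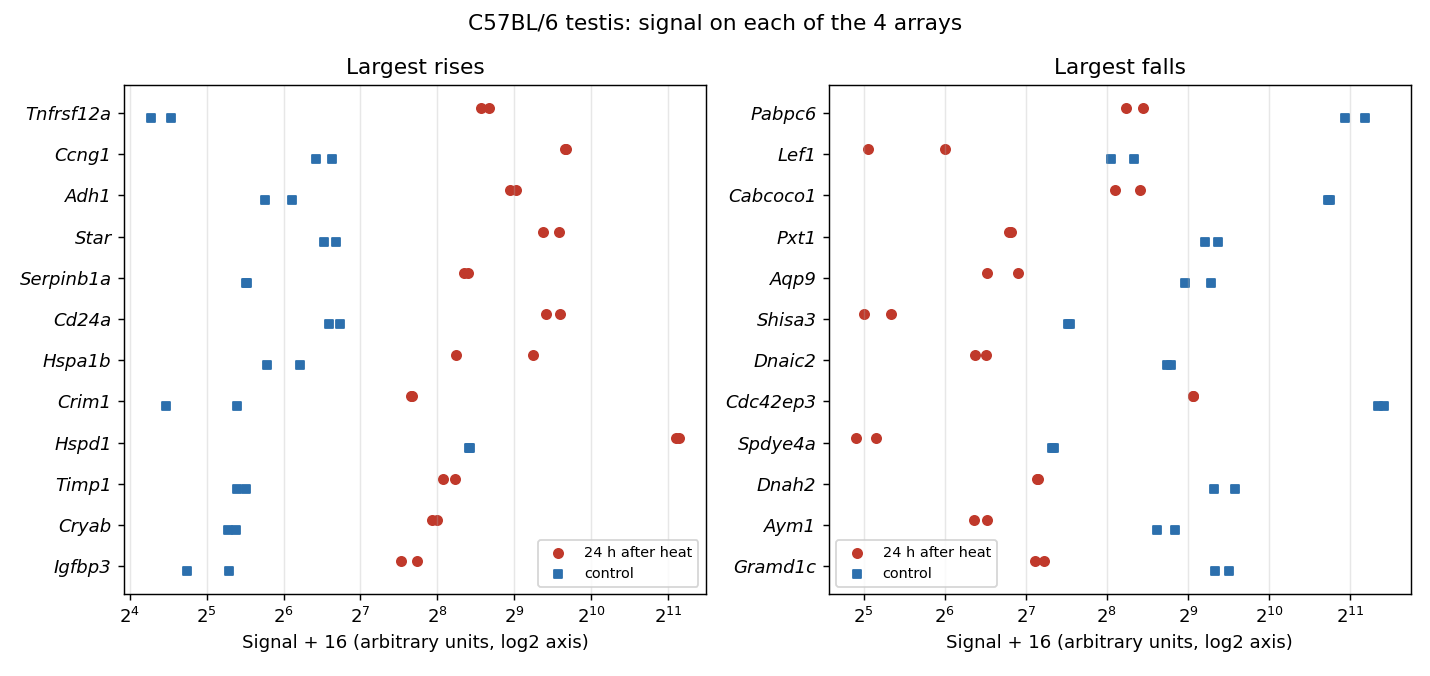
Signal plus 16 in arbitrary units, on a log2 axis, for the 12 named genes with the largest called rises (left) and falls (right) in C57BL/6 testis. Red circles are the 2 arrays 24 h after heat and blue squares the 2 control arrays. The groups do not overlap for any of these genes, since the choice of genes required it, and Hspa1b shows the widest spread at 24 h (590.5 and 286).

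Among the genes that fell, Pabpc6, a member of the poly(A)-binding protein family, had the largest change. Its signals were 332 and 286 at 24 h, against 1945 and 2317 in controls, a change of −2.72 (SE 0.18, adjusted p = 1.79e-06). Lef1, a transcription factor that works with beta-catenin, had 48.3 and 17.3, against 306 and 249.6, a change of −2.66, with −1.13 from its other probe set. Cabcoco1, a calcium-binding protein of cilia, had 258 and 323, against 1712 and 1674, a change of −2.49. Pxt1, a peroxisomal protein made in the testis, had 95.1 and 97.1, against 649 and 576, a change of −2.48. Dnaic2 and Dnah2 encode parts of the dynein motors of flagella, and they changed by −2.33 and −2.31, with −0.84 from the other probe set of Dnaic2. Aqp9, a channel for water and glycerol, changed by −2.41, Shisa3 by −2.36, Cdc42ep3, an effector of the GTPase CDC42, by −2.32, Spdye4a by −2.31, Aym1 by −2.29 and Gramd1c, a sterol carrier of the endoplasmic reticulum, by −2.25. The plot of signals on the 4 arrays shows these genes with the controls on the high side.

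The list of pachytene spermatocytes, cells in the long prophase of meiosis, had 2 higher and 12 lower of 21 tested, with a median of −0.66. The summed signal of the list was 39573 and 40982 at 24 h, against 45733 and 47144 in controls. Piwil1, which binds the piRNAs of this stage, had 227 and 297, against 1153 and 1041, a change of −2.01 (SE 0.17, adjusted p = 4.55e-06). The meiotic cyclin Ccna1 had 218 and 204, against 699 and 878, a change of −1.82 (SE 0.26), and the meiotic kinase Aurkc had 128 and 119.9, against 401 and 395, a change of −1.56. Tbpl1, a relative of the TATA-binding protein, fell by 1.06 and Tdrd5, a tudor protein of germ granules, by 0.90. Ldhc, the lactate dehydrogenase of germ cells and the most abundant member, had 9386 and 9609, against 9443 and 9820.0, and was not called (−0.02).

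Of the 16 early meiotic genes 1 was higher and 3 lower, with a median of −0.28, and 5 were lower with the compared arrays only. Spo11, which cuts DNA to start recombination, fell by 1.61 (SE 0.25) to 168 and 215 at 24 h, against 622 and 604 in controls. Stag3, a meiotic cohesin, fell by 0.69 and Syce1, of the synaptonemal complex, by 0.50. The list of recombination and synapsis genes, which shares these, had 2 higher and 7 lower of 29, with Mdc1, a DNA damage mediator, at −0.77 and Syce2, another synaptonemal protein, at 0.53. Of 19 spermatogonial markers 6 were higher and 2 lower, with a median of 0.36, and 3 were higher without 24 h replicate 2. The summed signal of these markers went the other way, with 3560 and 3621 at 24 h, against 4102 and 4397 in controls. Stra8, which retinoic acid induces at the entry into meiosis, rose by 1.43 with 335 and 304, against 117 and 99.5. The cyclin Ccnd2 rose by 1.28 with 175 and 174, against 61.0 and 63.9. Dmrtb1 fell by 0.92 and Id4, a marker of stem spermatogonia, changed by −1.0 with 298 and 368, against 673 and 681.

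Spermatids are the cells after meiosis. Elongating spermatids had 7 higher and 0 lower of 25, with a median of 0.25 and a summed signal of 140413 and 143478 at 24 h, against 114067 and 120872 in controls. With median centring 4 were higher, and with the mean of all probe sets 11. The transition protein gene Tnp1 lay at 11768 and 12118, against 10115 and 11180.0, a change of 0.17 that did not pass, and Prm1 changed by 0.15 (adjusted p = 0.34). Fscn3, a testis fascin, rose by 0.92, Txndc2 and Txndc8, thioredoxins of sperm, by 0.68 and 0.54, and Spata18, a mitochondrial protein, by 0.66. Round spermatids had 7 higher and 5 lower of 24, with a median of 0.17. The spermatid kinase Tssk2 rose by 0.82 with 7278 and 7305, against 4191 and 4074, and the actin-like genes Actrt1 and Actl7a by 0.85 and 0.70. Zpbp2, a protein of the acrosome, fell by 0.94 and Dpep3, a surface dipeptidase, by 0.83.

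Of 31 tested genes of cell division 18 were lower and 5 higher, with a median of −0.82, against 16.6% lower among all genes. Their summed signal was 14806 and 15479.9 at 24 h, against 24184 and 26117 in controls. The 5 higher became 3 without 24 h replicate 2, without control replicate 2 or with median centring, and 2 with the mean of all probe sets. Nek2, a centrosome kinase, had 305 and 394, against 1537 and 1823, a change of −2.22 (SE 0.20), and its other probe sets gave −2.10, −0.01 and −0.34. Aurka, the spindle pole kinase, had 232 and 259, against 1045 and 1304, a change of −2.18 (SE 0.22, adjusted p = 9.81e-06). Birc5, or survivin, which works with Aurora kinases at the centromere, fell by 1.17. Kif2c, a kinesin that takes microtubules apart, changed by 0.79, but its other probe sets gave −0.02, −1.05 and 0.26.

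The piRNA pathway protects the germ line from transposons with small RNAs. Of its 18 tested genes 10 were lower and 0 higher, with a median of −0.53. Besides Piwil1, the mitochondrial nuclease Pld6 fell by 1.89 (SE 0.16), with signals of 158 and 119 at 24 h, against 548 and 556 in controls. Henmt1, which methylates piRNA ends, fell by 1.47 with 29.3 and 18.0, against 82.4 and 104. The RNA helicase Ddx4, found in all germ cells, had 1537 and 1728, against 2544 and 2493, a change of −0.62 (SE 0.11). Of 22 germ cell RNA-binding genes 10 were lower and 5 higher, and 6 were lower without 24 h replicate 1, control replicate 1 or control replicate 2. Khdrbs3, a splicing regulator, fell by 1.38 and Rbm44, a protein of the bridges between germ cells, by 1.16. Cirbp, the cold-inducible RNA-binding protein, fell by 0.95 with 154 and 181, against 355 and 319.8. Celf1, which controls splicing and translation, changed by 1.07, and its other probe sets gave −0.29, −0.26, 0.79 and 0.52.

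Of 34 genes of the respiratory chain 16 were lower, 5 higher and 13 not called, with a median of −0.25. Without control replicate 1 10 were lower, and the 5 higher became 2 without 24 h replicate 1, 3 without control replicate 2 and 3 with median centring or C57BL/6 arrays only. Cox8c, a subunit of cytochrome c oxidase made in the testis, had 1169 and 1073 at 24 h, against 3341 and 3561 in controls, a change of −1.61, although its other probe set gave 0.34. Cyct, the cytochrome c of the testis, had 630.3 and 623, against 1980.4 and 1895, a change of −1.60. Cycs, the cytochrome c of other tissues, had 4376 and 3986, against 2566 and 2150.1, a change of 0.83 (SE 0.13). Cox6b2 and Cox6b1, the testis and the common form of 1 oxidase subunit, changed by −0.98 and 0.79. Of the glucose transporters, Slc2a3 of germ cells fell by 1.34 with 2197 and 2049, against 5166 and 5597, while Slc2a1 rose by 1.85 with 232 and 237, against 60.9 and 46.7.

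**Figure D2:**
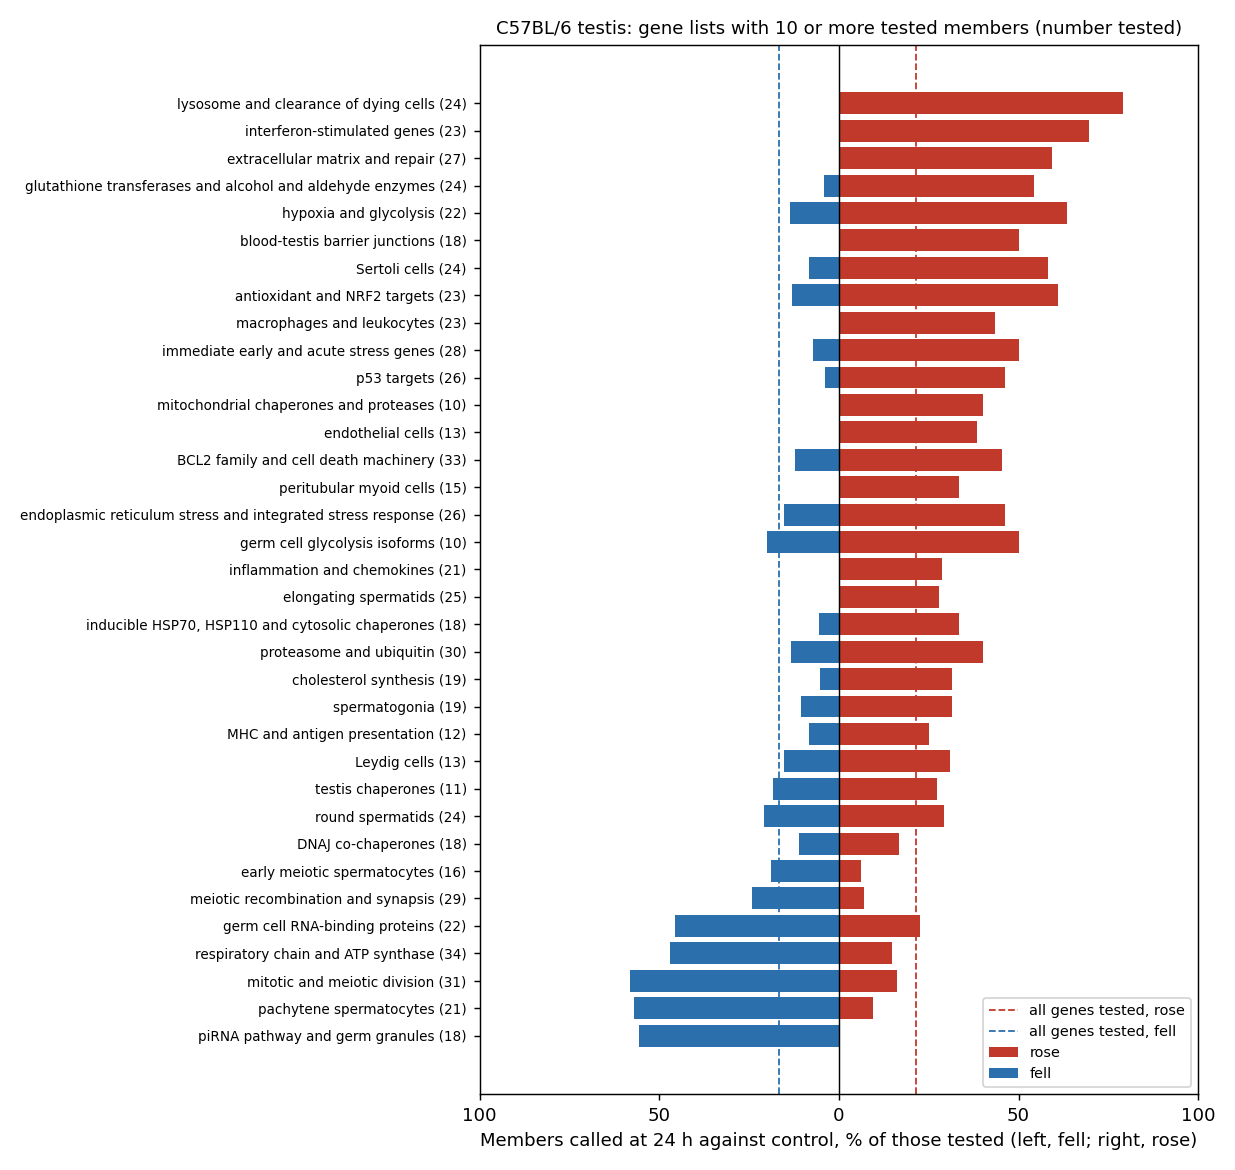
Share of tested members called higher (red, to the right) and lower (blue, to the left) at 24 h against control in C57BL/6 testis, in % of those tested, for the lists with 10 or more tested members. Dashed lines mark all genes tested, 21.4% higher and 16.6% lower, and the 3 lists at the bottom are those of the piRNA pathway (10 of 18 lower), pachytene spermatocytes (12 of 21) and cell division (18 of 31).

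Transcripts of Sertoli cells were more often higher than lower. Of 24 tested markers 14 were higher and 2 lower, with a median of 0.43 and a summed signal of 38424 and 36788 at 24 h, against 22461 and 22499.7 in controls. Without 24 h replicate 1, without control replicate 2 or with median centring 9 were higher. Vim, the intermediate filament vimentin, had 2450.3 and 2401, against 485 and 458, a change of 2.33 (SE 0.14, adjusted p = 1.28e-06). Aard, a protein of unknown role that Sertoli cells make, rose by 1.38, Tmsb4x, which binds actin monomers, by 1.20 and Clu by 0.87. Gdnf, the factor that feeds stem spermatogonia, had 47.0 and 36.6, against 6.61 and 2.48, a change of 1.49. Junction genes of the blood-testis barrier had 9 higher and 0 lower of 18, with a median of 0.66. The catenins Ctnna1 and Ctnnb1, which tie cadherins to actin, rose by 1.87 and 1.12, with 0.42 from another probe set of Ctnna1. Cldn11, the claudin of this barrier, rose by 0.93 with 786 and 640.0, against 376 and 353, and Nectin2, which joins Sertoli cells to spermatids, by 1.05. Gja1, the gap junction protein connexin 43, changed by 0.99, and its other probe sets gave 1.03, 1.4, 1.11, 0.09 and −0.71.

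Of the lysosome and clearance genes 19 of 24 were higher, with 0 lower and a median of 0.74. Without 24 h replicate 1 12 were higher. The cathepsins Ctsb, Ctsa and Ctsz, proteases of the lysosome, rose by 1.43, 1.61 and 1.47, with 0.37, −0.70 and 0.69 from other probe sets. Ctsb had signals of 825 and 749.6 at 24 h, against 267 and 299 in controls. Elmo1 and Rac1, which move the membrane when a cell engulfs another, rose by 1.20 and 1.29, with 0.20 from another probe set of Rac1. Scarb1, a receptor for lipoproteins and dying germ cells, rose by 0.80 with 878 and 751, against 428 and 495. Lgals3, a galectin of phagocytes, rose by 1.15.

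Markers of macrophages moved beside these genes. Of 23 tested 10 were higher and 0 lower, with a median of 0.53 and sums of 6144 and 6275 at 24 h, against 4228 and 3881 in controls. Without control replicate 1, without control replicate 2 or with median centring 6 were higher. Their part in the other lists was not tested. Lyz2, a lysozyme of macrophages, had 315 and 348, against 151 and 142, a change of 1.09 (SE 0.22), Cd68 had 74.9 and 68.9, against 22.1 and 28.8, and also changed by 1.09. Lyz1 changed by 1.75, with −0.47 from another probe set. Mrc1, the mannose receptor, changed by 0.70, lost without control replicate 1 (0.58). Aif1, the most abundant member, changed by 0.48, lost without 24 h replicate 2 (0.44) or control replicate 2 (0.39). No marker of neutrophils (7 tested), lymphocytes (8) or red blood cells (3) was called. The neutrophil markers summed to 160.1 and 176, against 194 and 152, and those of red blood cells to 69.2 and 112, against 82.3 and 109.8. Endothelial markers had 5 higher and 0 lower of 13, among them Vwf, the von Willebrand factor, at 1.04, but 1 without 24 h replicate 1, 2 without control replicate 1 and 3 without control replicate 2. Peritubular myoid cells had 5 higher and 0 lower of 15 (3 higher without 24 h replicate 1), with Pdgfra, a growth factor receptor, at 1.79 (0.88 from another probe set) and Tagln, an actin-binding protein of smooth muscle, at 0.99. Of 5 adipose markers Lipe alone was called (0.45), and the call was lost without 24 h replicate 2 (0.40) or control replicate 1 (0.28). Of 7 epididymis markers Spink2, an acrosin inhibitor that germ cells also make, fell by 1.03 and Rnase10 by 1.09.

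Leydig cell genes moved in both directions, 4 higher and 2 lower of 13 with a median of 0.11. Star, described above, rose. Cyp17a1, the enzyme that turns progestins into androgens, had 521 and 404 at 24 h, against 1203 and 1017 in controls, a change of −1.24 (SE 0.19, adjusted p = 0.000225). Hsd17b3, which makes testosterone in the last step, had 121 and 119, against 209.6 and 177, a change of −0.62. Hsd3b1, which acts earlier in the pathway, had 555 and 563, against 275 and 255, a change of 1.04. Cyp11a1, which cuts the cholesterol side chain, had 288 and 214, against 257 and 265, and did not pass (−0.07). Of 19 cholesterol synthesis genes 6 were higher and 1 lower. Dhcr7, the last enzyme of the pathway, rose by 1.10, Msmo1 by 1.18 (0.56 from another probe set), Cyp51, the lanosterol demethylase, by 0.86 and Hsd17b7 by 1.35, with −0.04 and 0.36 from its other probe sets. Idi1, an isomerase early in the pathway, fell by 0.88.

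Matrix genes had 16 higher and 0 lower of 27, with a median of 0.60. Col3a1, a fibrillar collagen, had 811 and 539.9 at 24 h, against 212 and 162 in controls, a change of 1.75 (SE 0.23). Col4a1 and Col4a2, collagens of the basement membrane, rose by 1.11 and 1.06, and Tgfbi, a matrix protein that TGF-beta induces, by 1.02. Interferon-stimulated genes had 16 higher and 0 lower of 23, with a median of 0.92 and sums of 2010.3 and 1787, against 722 and 736. Ifitm3, which blocks the entry of viruses, had 772 and 566, against 224 and 204, a change of 1.56 (SE 0.20). Oasl2 rose by 1.81, the guanylate-binding proteins Gbp2 and Gbp3 by 1.74 and 1.06, and Rtp4 by 1.31. Inflammation genes had 6 higher and 0 lower of 21, but 3 without 24 h replicate 1 and 2 without control replicate 2. The chemokine Cxcl2 rose by 1.08, with 19.8 and 33.3 at 24 h, against 4.23 and 3.50 in controls. Cxcl1 changed by 0.69, lost without 24 h replicate 2 (0.62), control replicate 1 (0.67) or control replicate 2 (0.72). Its other probe sets gave larger changes of 2.33 and 1.09. MHC genes had 3 higher and 1 lower of 12, with a median of 0.08, and 1 higher without 24 h replicate 1, without control replicate 2 or with an added constant of 1. B2m, the light chain of class I molecules, rose by 0.83 with 0.41 from another probe set.

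Genes of the p53 pathway, which answers DNA damage and stress, had 12 higher and 1 lower of 26, with a median of 0.57. Cdkn1a, the cell cycle inhibitor p21, had 401 and 378 at 24 h, against 66.3 and 45.1 in controls, a change of 2.52 (SE 0.26, adjusted p = 1.3e-05), and 0.97 by another probe set. Gadd45a, a growth arrest gene, had 82.4 and 95.6, against 16.8 and 14.1, a change of 1.74. Rrm2b, which supplies nucleotides for repair, rose by 1.55 (0.46 from another probe set) and Ei24 by 1.01. Mdm2, which degrades p53, had 898 and 887, against 690.0 and 680.4, and did not pass (0.37, adjusted p = 0.0587), while another probe set gave −0.76. Cell death genes had 15 higher and 4 lower of 33. Ripk3, a kinase of necroptosis, rose by 1.02, with 95.8 and 81.8 at 24 h, against 31.0 and 40.9 in controls. Xiap, a caspase inhibitor, changed by 1.35, but its other probe sets gave −0.25 and 0.99. Bad, which promotes apoptosis at mitochondria, fell by 1.48 and Diablo, which frees caspases, by 1.32, with −0.08 from another probe set of Diablo.

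Antioxidant genes had 14 higher and 3 lower of 23, with a median of 0.70. Without control replicate 2 9 were higher, and 1 was lower without 24 h replicate 2, without control replicate 1 or with the compared arrays only. Hmox1, the inducible heme oxygenase, had 97.0 and 90.9 at 24 h, against 5.65 and 29.8 in controls, a change of 1.80 (SE 0.40, adjusted p = 0.00292). Pgd, an enzyme that makes NADPH, had 682 and 639, against 147 and 178, a change of 1.93. Txn1, thioredoxin, rose by 1.66 (0.15 from another probe set), Cat, catalase, by 1.56 and Sqstm1, the autophagy adaptor p62, by 1.36. Srxn1, sulfiredoxin, rose by 0.89, with 0.20, 0.93 and 1.84 from its other probe sets. Glutathione transferases and alcohol and aldehyde enzymes had 13 higher and 1 lower of 24. Gsta2, a transferase, had 1282 and 1298, against 352 and 278, a change of 1.99. Mgst1, Adh5 and Gsta4, of the same families, rose by 1.44, 1.33 and 1.20. Hypoxia and glycolysis genes had 14 higher and 3 lower of 22. Hif1a, the oxygen-regulated transcription factor, changed by 2.05, with 0.22 from another probe set, and Pgk1, a glycolytic kinase, rose by 1.45. Pfkp, a phosphofructokinase, fell by 1.38, with −0.47 from another probe set. Of 10 germ cell glycolysis isoforms 5 were higher (3 without control replicate 1, 2 with median centring) and 2 lower, with Aldoart1 and Aldoart2, aldolases of sperm, at 0.69 and 0.52.

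Immediate early genes, which cells switch on within minutes of a stress, had 14 higher and 2 lower of 28, with a median of 0.95, and 8 higher without 24 h replicate 1. Ier3, an early response gene that limits apoptosis, had 179 and 189 at 24 h, against 16.2 and 20.1 in controls, a change of 2.55 (SE 0.25, adjusted p = 9.27e-06). The phosphatases Dusp4 and Dusp6, which switch off MAP kinases, rose by 1.43 and 0.98, the transcription factor Klf6 by 1.33 and Jund by 0.93, with 0.07 from another probe set of Jund. Endoplasmic reticulum and integrated stress response genes had 12 higher and 4 lower of 26, with a median of 0.48. Without 24 h replicate 1, without 24 h replicate 2 or with the mean of all probe sets 7 were higher, and 2 were lower without 24 h replicate 1 or control replicate 1. Asns, asparagine synthetase, had 1721 and 1867, against 968 and 1028, a change of 0.84, and Psat1, of serine synthesis, rose by 0.82. Xbp1 and Atf6, transcription factors of the unfolded protein response, rose by 1.09 and 0.93, with 0.25 and 0.46 from other probe sets. Sdf2l1, a partner of the chaperone BiP, fell by 1.56 with 43.1 and 41.0, against 179 and 134. The proteasome list had 12 higher and 4 lower of 30, but 4 and 4 with median centring. Without 24 h replicate 1, 24 h replicate 2, control replicate 1 and control replicate 2 the higher ones numbered 4, 3, 7 and 4. The lower ones numbered 2 without 24 h replicate 1, without either control array, with C57BL/6 arrays only or with the compared arrays only. Psma7, a subunit of the common proteasome, rose by 0.89, and Psma8, its germ cell form, fell by 1.14 with 469 and 594, against 1172 and 1192. Psmb5 fell by 0.53 and Psmb3 rose by 0.71 (0.28 from another probe set). The regulator Psme3 changed by 0.56, but by −0.43 on another probe set.

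X-linked genes stood out when calls were counted by chromosome, a count made after the data were seen. Of the 514 tested genes on the X chromosome 262 (51%) were higher and 4 (0.778%) lower, with a median log2 change of 0.55. On the 19 autosomes the share of higher genes ran from 17.3 to 26.4% and of lower genes from 12.3 to 20.7%. The Y chromosome had only 8 tested genes, of which 4 (50%) were higher and 0 lower, with a median of 0.48. A similar share was thus read on the Y chromosome, though 8 genes are too few to compare it with the X chromosome. Of the 514 X-linked genes 115 rose at least 2-fold, against 983 of all 15762 genes tested (6.24%). Of the X-linked genes that rose 248 belonged to no list above. Under every alternative setting run, 206 to 268 X-linked genes were higher and 1 to 8 lower. The share rose with signal, taking 4 equal bins of mean signal over all arrays. In the dimmest bin 19% of X-linked genes were higher, against 8.92% of other genes, and in the brightest bin 76.9%, against 22.9%.

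The X-linked genes of this paragraph were picked after their values were seen. Ddx3x, an RNA helicase, had signals of 1339.9 and 1291 at 24 h, against 391 and 314 in controls, a change of 1.86 (SE 0.16, adjusted p = 5e-06). Morf4l2, a chromatin protein, had 2692 and 2442, against 766 and 693, a change of 1.79 (SE 0.15). Hprt, an enzyme of purine salvage, had 442 and 424, against 131 and 122, a change of 1.66. These 3 genes showed no overlap between the groups, as did 71.2% of all genes tested. Fmr1, an RNA-binding protein, rose by 1.60, Atp6ap2, an accessory protein of the proton pump, by 1.59, Sat1, of polyamine breakdown, by 2.12, Atrx, a chromatin remodeller, by 1.53 and the meiotic cyclin gene Ccnb3 by 2.15. The 4 that fell were Tsx, a Sertoli and germ cell transcript (−0.70), Samt2b (−0.69), Slc7a3, an amino acid transporter (−0.59), and 1600025M17Rik (−1.16). Without 24 h replicate 1 the calls of Samt2b (−0.53), Slc7a3 (−0.54) and 1600025M17Rik (−0.92) were lost, and without control replicate 1 as well (−0.60, −0.53 and −0.83). The call of Slc7a3 was also lost without 24 h replicate 2 (−0.64) or control replicate 2 (−0.65). At 8, 10 and 12 h against the same controls 0, 57 and 101 X-linked genes were higher. These were 0%, 11.1% and 19.6% of those tested, against 0.0888%, 6% and 9.71% of all genes tested.

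**Figure D3:**
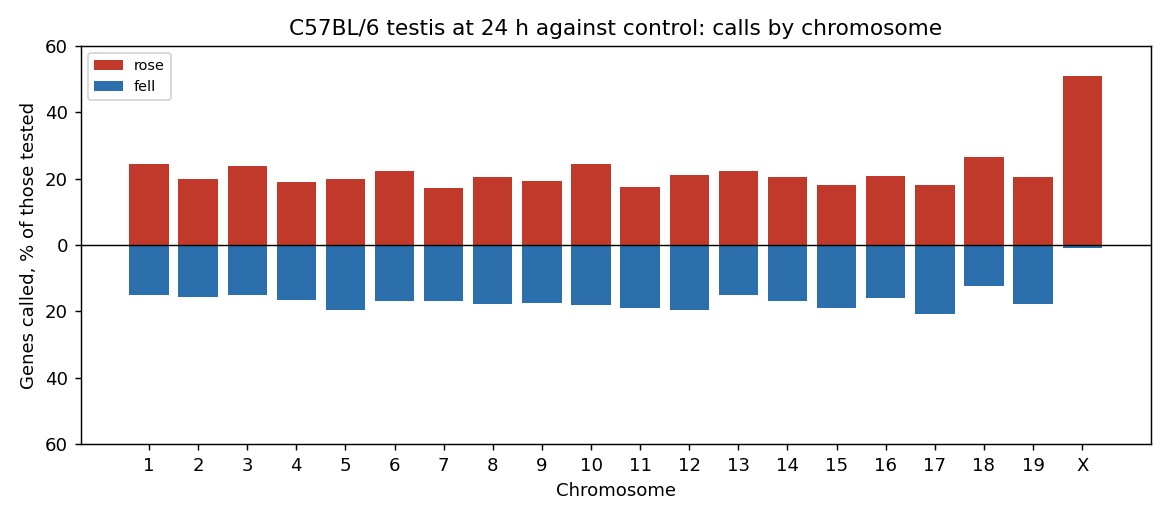
Genes called at 24 h against control in C57BL/6 testis by chromosome, in % of those tested, higher in red above 0 and lower in blue below it. The X chromosome has 51% higher and 0.778% lower, while the autosomes lie between 17.3 and 26.4% higher and between 12.3 and 20.7% lower. The Y chromosome, with 8 tested genes (50% higher), is not drawn.

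The 24 h testes were also set against those taken 12 h after heat, a comparison that does not use the controls. Of all genes 1515 (9.61%) were called, 886 (5.62%) higher at 24 h and 629 (3.99%) lower. The count varied with the arrays in the fit. Leaving out 12 h replicate 1 raised it. It fell without 24 h replicate 1, 24 h replicate 2 or 12 h replicate 2. Each of these fits also holds fewer arrays. Fitted on the 4 arrays alone, 0 genes were called by limma, with 2804 at an unadjusted p under 0.05. The 12 h replicate 2 array had the highest beta-actin 3'/5' ratio of all, 3.57, and its part was not tested. Division genes had 2 higher and 9 lower of 31, and lysosome and clearance genes 10 higher and 0 lower of 24.

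Hspa1b differed between 24 h and 12 h by −3.12 (adjusted p = 0.012), Hmox1 differed by −1.59 and Hspa8 by −0.78. Hspd1 differed by −0.08 and did not pass. Other falls were those of Dnaic2 (−1.72), Cyp17a1 (−1.64), Pxt1 (−1.45) and Pabpc6 (−1.43). The largest rises were those of Serpinb2, a protease inhibitor, at 2.23, Diaph2, a formin that builds actin filaments, at 2.15, Adh1 at 1.89, Ktn1, which binds kinesin, at 1.74, Scara3, a scavenger receptor, at 1.71 and Kctd14 at 1.69. Against the controls, however, Kctd14 at 24 h changed by −0.27 and was not called. Serpinb2 had signals of 78.2 and 129 at 24 h, and Ktn1 of 300.5 and 283.

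The changes at each time against the same controls are set side by side for members described above. Hspa1b changed by 6.40, 6.03, 5.86 and 2.74 at 8, 10, 12 and 24 h, and Hspa8 by 0.98, 1.83, 1.78 and 1.0. Hspd1 changed by 1.25, 2.66, 2.79 and 2.71, and Cryab by 2.37, 2.54, 2.99 and 2.63. Cdkn1a changed by 0.35, 2.36, 2.89 and 2.52, highest at 12 h. Of genes that were highest at 24 h, Tnfrsf12a changed by 0.67, 2.79, 3.46 and 4.21, Adh1 by 0.63, 0.93, 1.15 and 3.04, and Cd24a by 0.04, 0.87, 1.59 and 2.85. Among genes that fell, Pabpc6 changed by −0.09, −0.92, −1.29 and −2.72, and Ccna1 by −0.01, −0.33, −0.50 and −1.82. Cyp17a1 turned, with 0.74, 0.76, 0.40 and −1.24.

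**Figure D4:**
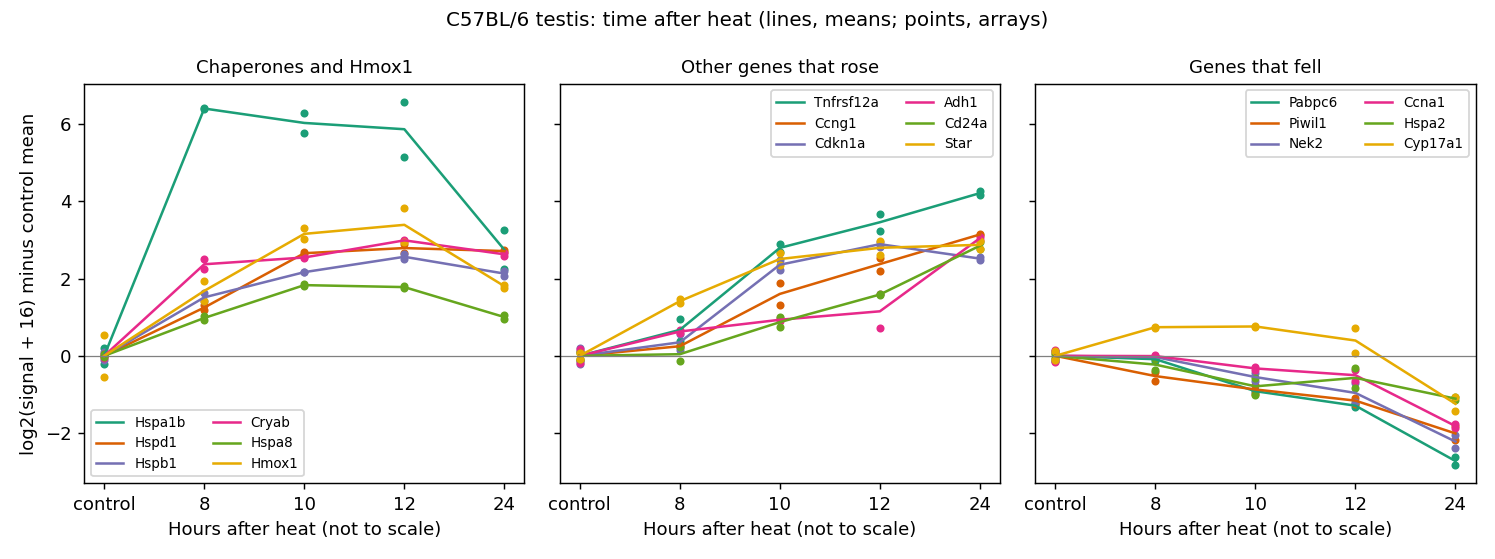
Change of log2(signal + 16) from the control mean in C57BL/6 testis, for controls and at 8, 10, 12 and 24 h after heat (not to scale). Lines join group means and points are the 2 arrays of each group. Hspa1b falls back to 2.74 at 24 h, while Tnfrsf12a (4.21), Adh1 (3.04) and Pabpc6 (−2.72) reach their most extreme mean there.

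The same 24 h contrast in AKR/N mice, with its own controls, called 1932 genes higher and 1754 lower (12.3% and 11.1%). Of the calls in C57BL/6 2655 were also made in AKR/N in the same direction, 44.3% of those in C57BL/6 and 72% of those in AKR/N, and 31 in the opposite one. The difference of the 24 h change between the strains was called for 277 genes (1.76% of all), 129 higher and 148 lower in C57BL/6 (0.818% and 0.939%). This count fell to between 2 and 122 when any one of the 8 arrays was left out, 2 without AKR/N 24 h replicate 1, 92 without AKR/N 24 h replicate 2, 11 without AKR/N control replicate 1, 122 without AKR/N control replicate 2, 15 without C57BL/6 24 h replicate 1, 62 without its replicate 2, 19 without C57BL/6 control replicate 1 and 16 without its replicate 2. Fitted on these 8 arrays alone, the count was 2.

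Star differed most, with a change of 2.87 in C57BL/6 and −0.45 in AKR/N, a difference of 3.33 (adjusted p = 0.00035). Cd24a changed by 2.85 in C57BL/6 and 0.02 in AKR/N, a difference of 2.83 (adjusted p = 5.53e-05). Ier3 changed by 2.55 and 0.38, Phlda1, a p53-regulated gene of cell survival, by 2.48 and 0.45, Cdkn1a by 2.52 and 0.53 and Arhgef1 by 0.74 and −1.10 in C57BL/6 and AKR/N. The call of Arhgef1 within C57BL/6 was lost without 24 h replicate 1 or control replicate 1 (0.66 in both cases). Genes with a lower change in C57BL/6 were Rnls, the oxidase renalase, at −1.94 against −0.24 in AKR/N, Gramd1c at −2.25 against −0.53, Aym1 at −2.29 against −0.51 and Dennd5b at −1.79 against 0.12, with −0.69, −0.89 and −0.67 in C57BL/6 from other probe sets. Dapp1, an adaptor of immune receptors, changed by −1.20 in C57BL/6 but by 0.61 on another probe set, and Hebp1, a heme-binding protein, by −0.34, against 1.83 in AKR/N. Hspd1 rose in both strains, by 2.71 in C57BL/6 and 1.30 in AKR/N, and the difference was called. In AKR/N 200 of 514 X-linked genes rose (38.9%) and 5 of 8 on the Y chromosome (62.5%), against 12.3% of all genes. Of the X-linked genes 3 (0.584%) had a strain difference called higher in C57BL/6, against 0.818% of all genes.

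**Figure D5:**
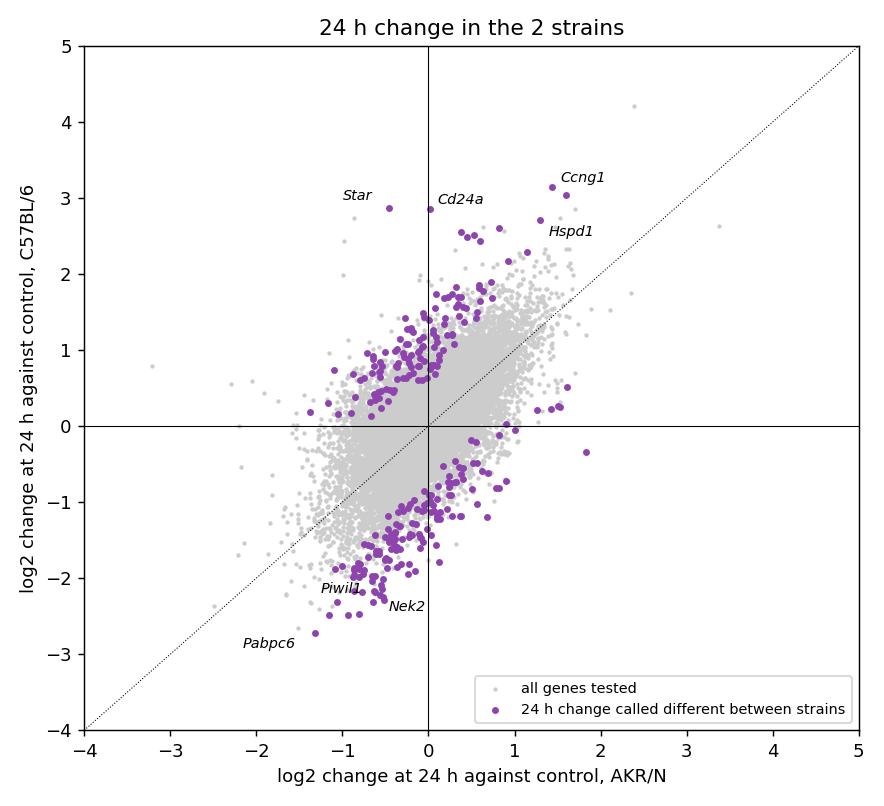
Log2 change at 24 h against control in C57BL/6 (vertical axis) and in AKR/N (horizontal axis), 1 point per tested gene, with the 277 genes whose change was called different between the strains in purple and a dotted line of equal change. Star (2.87 in C57BL/6, −0.45 in AKR/N) and Cd24a (2.85 and 0.02) lie farthest above the line among the labelled genes.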

How the data were processed

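The labels' protocols describe total RNA amplified from the 3' end and hybridised to Affymetrix Mouse Genome 430 2.0 arrays. The authors deposited 1 signal intensity for each of 45101 probe sets per array, on a linear scale. The summary software is not given in the sources used here. Per the values, the mean without the top and bottom 2% was 125 on every array, so each array had been scaled to 1 mean. That scaling fixes the mean of each array, so a general loss or gain of RNA could not be seen.

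No control probe set (64 in all) was used. Of the others 34945 named 1 gene in GEO's platform annotation, 932 several and 9160 none, and 34741 matched RefSeq of GRCm38.p6. Each of 18193 genes was represented by its probe set of highest mean, and genes whose highest group mean of log2(signal + 16) lay under the 40th percentile (5.07) were left out, leaving 15762. limma 3.58.1 (R 4.3.3, data.table version 1.17.8) was fitted with 1 mean per group over 20 arrays in 10 groups, giving 10 residual degrees of freedom, and p-values were adjusted over all genes tested with the Benjamini-Hochberg method. The procedure was tested on simulated data. Figures were drawn with matplotlib 3.10.9 (Python 3.11.15, pandas 2.3.3).

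Groups share the replicate numbers 1 and 2. Deviations of arrays of the same number correlated with r of −0.277 to 0.298 over 45 pairs of groups (0.001 between 24 h and control). Whether some groups were paired by number cannot be told from this, and the main fit used no pairing. Alternatives were other added constants, filters, scalings, probe set rules, sets of arrays, a replicate block and leaving out each array.

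The comparison, the 42 lists (841 genes, 734 of them tested) and the rules were chosen with earlier results of these data known. The rule for named genes took 215, namely the largest rises and falls without overlap, up to 5 called members of each list with the smallest adjusted p, the brightest marker of each cell type, the largest differences from 12 h and between strains, and a fixed set of heat and testis genes. Most of these are named. For several genes the text gives only the other probe set that moved least or the opposite way, and further ones moved more. Cyp11a1, the X-linked genes of the paragraph that describes them and the pairs of related genes were chosen after values were seen.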

Additional observations from a re-analysis of the deposited data

Results flagged for a closer look

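The 24 h change differed between C57BL/6 and AKR/N for 277 genes by limma's test of the difference, and 39 of the genes named in the text were among them. Differences are the log2 change in C57BL/6 minus that in AKR/N. Among stress, p53 and death genes the differences were 2.17 for Ier3, 2.04 for Phlda1, 1.99 for Cdkn1a, 1.71 for Ccng1, 1.65 for Gadd45a, 1.48 for Dusp4 and 1.35 for Cxcl1. Among chaperones and mitochondrial proteases they were 1.41 for Hspd1, 0.95 for Lonp1, 0.83 for Hspa8 and 0.75 for Dnajb4. Genes of steroid and sterol synthesis and of transport had 3.33 for Star, 1.17 for Hsd17b7 and 1.27 for Slc2a1. Cd24a had 2.83, Arhgef1 1.84, Gdnf 1.56, Adh1 1.44, Ctsa 1.26 and Kif2c 0.91.

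Among the genes named, those with a lower change in C57BL/6 included germ cell genes. The differences were −1.65 for Nek2, −1.41 for Aurka, −1.52 for Spo11, −1.48 for Piwil1, −1.39 for Henmt1, −1.02 for Pld6, −1.40 for Pabpc6, −1.22 for Cyct, −1.33 for Pxt1 and −1.10 for the X-linked Tsx. Cabcoco1 had −1.55, Cdc42ep3 −1.26, Spdye4a −1.67, Aym1 −1.78, Gramd1c −1.72, Rnls −1.70, Dapp1 −1.88, Dennd5b −1.92 and Hebp1 −2.16.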

How the results depend on the processing

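The count of genes called at 24 h against control (5989) stayed between 4071 and 6208 under all alternatives run, 4071 to 4555 without 1 array and 5844 with the replicate block. The count against 12 h (1515) was 996 with median centring, 919 with C57BL/6 arrays only, 0 with the 4 compared arrays only, 1359 with the replicate block, and 206 to 1786 without 1 array. The count of strain differences (277) was 178 with an added constant of 1, 735 with 64, 155 without a filter, 655 with a filter at the 60th percentile, 96 with median centring, 2 with the compared arrays only, 157 with the replicate block, and 2 to 122 without 1 array. X-linked genes called higher stayed between 206 and 268. The cause of these shifts was not tested, other than fewer arrays in the fits that leave arrays out. With the mean of all probe sets the sign turned for Kif2c (−0.0049), Psme3 (−0.11) and Cyp11a1 (0.0434). Tnp1 came to 0 with quantile normalization. That method gives equal ranks equal values, and Tnp1 lay at or near the highest signal of the 24 h and control arrays. Its 0 there therefore says nothing about its change. Without 1 array Ldhc ran from −0.0482 to 0.0082 and Cyp11a1 from −0.27 to 0.13. The dimmest genes are limited most, since the added constant shrinks their change.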

Other observations

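For 27 germ cell genes with a related gene expressed in other cells, a set drawn up after the values were seen, both changes at 24 h against control were set side by side. Of the germ cell genes 16 were lower and 5 higher, and of their partners 3 were lower and 15 higher. In 9 pairs the germ cell gene was lower and its partner higher, and in 0 pairs the reverse. Cetn1 and Cetn2, centrins of the centriole, changed by −0.57 and 1.44. Ppp3r2 and Ppp3r1, regulatory subunits of calcineurin, changed by −0.84 and 1.27. Pdha2 and Pdha1, subunits of pyruvate dehydrogenase, changed by −0.41 and 0.61. Pdha1 is X-linked, as are other partners, among them Cetn2. On the X chromosome 51% of the tested genes were higher, and the part of X linkage in these counts was not tested. Pairs of another kind were Tbpl1 and Tbp, both lower (−1.06 and −1.34), and Ldhc and Ldha (−0.02, not called, and −0.41).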
